A study of Mus musculus with 12 samples.

Results

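Casp8, Cflar, Ripk1, Ripk3, Mlkl, Zbp1 and Ninj1, 7 genes of apoptosis, necroptosis and membrane rupture, were followed in mouse bone marrow-derived macrophages (BMDMs). They were taken by gene symbol from a table of 55335 genes, each symbol matched 1 row, and all 7 were among the 12622 genes tested. RNA was sequenced from wild-type and Nlrp3-/- BMDMs, either left untreated as controls or stimulated with LPS and then ATP, a pair of signals that primes and triggers the NLRP3 inflammasome. There were 4 groups, a control and an LPS+ATP group of each genotype, with 3 libraries in each. The study asked how loss of NLRP3 alters the response of stimulated macrophages.

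The sample labels give 4 hours of LPS followed by 30 minutes of ATP, whereas the study's methods for stimulating BMDMs give 12 hours of LPS and 2 hours of ATP. Which of these applies to the libraries was not resolved here. Per the methods, BMDMs came from marrow of C57BL/6 mice aged 8 weeks cultured for 7 days with macrophage colony-stimulating factor, and all adherent cells were taken as BMDMs with no sort described. Wild-type and Nlrp3-/- mice came from different suppliers, per the methods. The sources used here do not say whether the 3 libraries of a group came from separate mice or cultures. The p-values therefore measure only the spread between these libraries.

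Apoptosis and necroptosis branch from shared complexes. Caspase-8, brought in by death receptors or Toll-like receptor adaptors, starts apoptosis and also cleaves the RIPK1 and RIPK3 kinases. Where caspase-8 is held back, RIPK3, engaged by RIPK1, TRIF or ZBP1, phosphorylates MLKL, which permeabilizes the plasma membrane. cFLIP, the product of Cflar, pairs with caspase-8 and tunes its activity, ZBP1 senses Z-form nucleic acids, and NINJ1 ruptures the membrane of dying cells, pyroptotic macrophages included.

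Promoter sequences are shown for Cflar and Mlkl, which rose together on stimulation, and for Casp8 and Ripk3, which changed less or fell. Each sequence covers the 250 bases before and 50 bases after a start site in RefSeq on GRCm38.p6, and 6 of the 7 genes had an entry (Zbp1 did not). Capitals mark matches on either strand to AANNGAAA, a core that interferon regulatory factors bind. The Cflar window is chr1:58711241-58711540 on the plus strand, the Mlkl window chr8:111338156-111338455 on the minus strand, the Casp8 window chr1:58802252-58802551 on the plus strand and the Ripk3 window chr14:55788808-55789107 on the minus strand.
Cflar: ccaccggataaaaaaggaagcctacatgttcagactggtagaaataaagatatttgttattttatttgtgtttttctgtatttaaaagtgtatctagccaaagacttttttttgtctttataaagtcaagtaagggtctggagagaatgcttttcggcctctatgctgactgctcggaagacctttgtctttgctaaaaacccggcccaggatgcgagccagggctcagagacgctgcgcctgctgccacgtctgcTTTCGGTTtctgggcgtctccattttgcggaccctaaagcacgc
Mlkl: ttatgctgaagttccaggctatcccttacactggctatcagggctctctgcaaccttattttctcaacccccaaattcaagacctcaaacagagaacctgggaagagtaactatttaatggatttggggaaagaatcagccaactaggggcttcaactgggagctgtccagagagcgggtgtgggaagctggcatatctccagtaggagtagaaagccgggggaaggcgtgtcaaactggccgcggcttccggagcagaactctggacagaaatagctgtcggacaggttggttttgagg
Casp8: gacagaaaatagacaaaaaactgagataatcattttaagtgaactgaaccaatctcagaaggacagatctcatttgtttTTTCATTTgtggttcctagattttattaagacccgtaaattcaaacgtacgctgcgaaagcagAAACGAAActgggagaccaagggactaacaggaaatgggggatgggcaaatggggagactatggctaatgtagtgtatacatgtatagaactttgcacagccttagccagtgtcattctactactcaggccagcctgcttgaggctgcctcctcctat
Ripk3: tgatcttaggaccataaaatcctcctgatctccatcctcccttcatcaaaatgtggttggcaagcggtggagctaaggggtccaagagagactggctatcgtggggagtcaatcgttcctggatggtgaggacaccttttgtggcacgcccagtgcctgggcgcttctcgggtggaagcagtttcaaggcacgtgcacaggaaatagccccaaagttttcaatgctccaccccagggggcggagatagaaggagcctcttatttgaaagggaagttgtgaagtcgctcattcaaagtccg

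Cflar had 1 match to AANNGAAA, at bases 7 to 14 after the start, and Casp8 had 2, at bases -171 to -164 and -108 to -101 relative to it. Mlkl, Ripk3 and Ninj1 had none in this window. The same letters occur in 23.9% of 32851 promoters of this length. TTCNNNGAA, the interferon-γ-activated site, occurs in 8.3% of promoters, and the NF-κB consensus in 8.46%. Ripk1 has 2 windows, of which the second held 2 copies of TTCNNNGAA and 1 of AANNGAAA, the last sharing its first base with the nearer copy of TTCNNNGAA, and the first held none. No window of the 6 genes held the NF-κB consensus.

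In the table, Nlrp3 was at 9.24 to 10.1 FPKM in wild-type controls, at 32.1 to 33.7 FPKM in wild-type LPS+ATP libraries and listed at 0 in all Nlrp3-/- libraries. FPKM, fragments per kilobase of transcript relative to the total mapped, summed to between 283278 and 299393 per library. Depth in reads is unknown. The spacing of the lowest FPKM values gave relative depths of 1 to 1.218, and correlations of log2 values were 0.9897 to 0.9925 within groups and 0.8155 to 0.9645 between groups. The macrophage markers were present in all libraries and summed to between 10580 and 21050 FPKM, nearly all of it Lyz2 (group means of 9309 to 18460 FPKM).

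Genotype was confounded with other differences between the libraries. Xist was at 32.8 to 56.3 FPKM in Nlrp3-/- libraries and at most 0.0416 FPKM in wild-type ones, and Uty, Kdm5d, Ddx3y and Eif2s3y, all Y-linked, had values above 0 in wild-type libraries and were at 0 in every Nlrp3-/- one. Nnt, a mitochondrial transhydrogenase known to be defective in some C57BL/6 stocks, averaged 1.16 FPKM in Nlrp3-/- against 9.38 FPKM in wild-type controls. Of 8 identifiers of the macrophage markers, 4 were lower in Nlrp3-/- controls, among them Cd68 by -0.73 and Csf1r by -0.62 on the log2 scale, and 4 were lower in Nlrp3-/- with LPS+ATP, among them Fcgr1 by -0.71 and Adgre1 by -0.49. The 5 fibroblast markers summed to 155 to 180 FPKM in wild-type and 880 to 1175 FPKM in Nlrp3-/- libraries. The 6 neutrophil markers summed to 230 to 318 FPKM in wild-type, 1386 to 1429 FPKM in Nlrp3-/- control and 619 to 621 FPKM in Nlrp3-/- LPS+ATP libraries, with Ly6g at 0.548 FPKM or less on average in every group. With stimulation Lcn2 rose, from 9.96 to 218 FPKM in wild-type and from 43.2 to 208 FPKM in Nlrp3-/- on average. S100a8, S100a9, Mpo and Elane fell in both genotypes. With LPS+ATP, Lcn2 was not called between genotypes (limma adjusted p = 0.26), whereas these 4 were higher in Nlrp3-/-. T or NK, B, endothelial and erythroid marker lists each summed to at most 14.5 FPKM. Effects of Nlrp3, sex, Nnt and culture composition on a genotype difference cannot be told apart, and in bulk RNA fewer cells of a type and less RNA per cell cannot be told apart either.

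Stimulation raised Zbp1, Mlkl and Cflar strongly, raised Ninj1 and Casp8 modestly and lowered Ripk1 and Ripk3, in both genotypes. Thus 5 of the 7 genes rose and 2 fell in wild-type BMDMs, and the count was again 5 and 2 in Nlrp3-/- BMDMs. A change here is a limma adjusted p under 0.05, which 23.3% of all tested genes met upwards and 53.1% downwards in wild-type, and 20.6% and 53.8% in Nlrp3-/-. With a log2 fold change of at least 1 also required, 3 of the 7 genes rose and 0 fell in each genotype. The corresponding share of all tested genes was 8.25% higher and 11.2% lower in wild-type, and 6.64% and 8.21% in Nlrp3-/-. The median log2 fold change of the 7 genes was 0.78 in wild-type and 0.45 in Nlrp3-/-, beside -0.26 and -0.24 for all tested genes. The control and stimulated libraries did not overlap for any of the 7 genes in either genotype. The share of all tested genes without overlap was not computed, so this count has no background to be read against. All fold changes on the log2 scale are of log2(FPKM + 1), which understates the change of low genes.

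**Figure D1:**
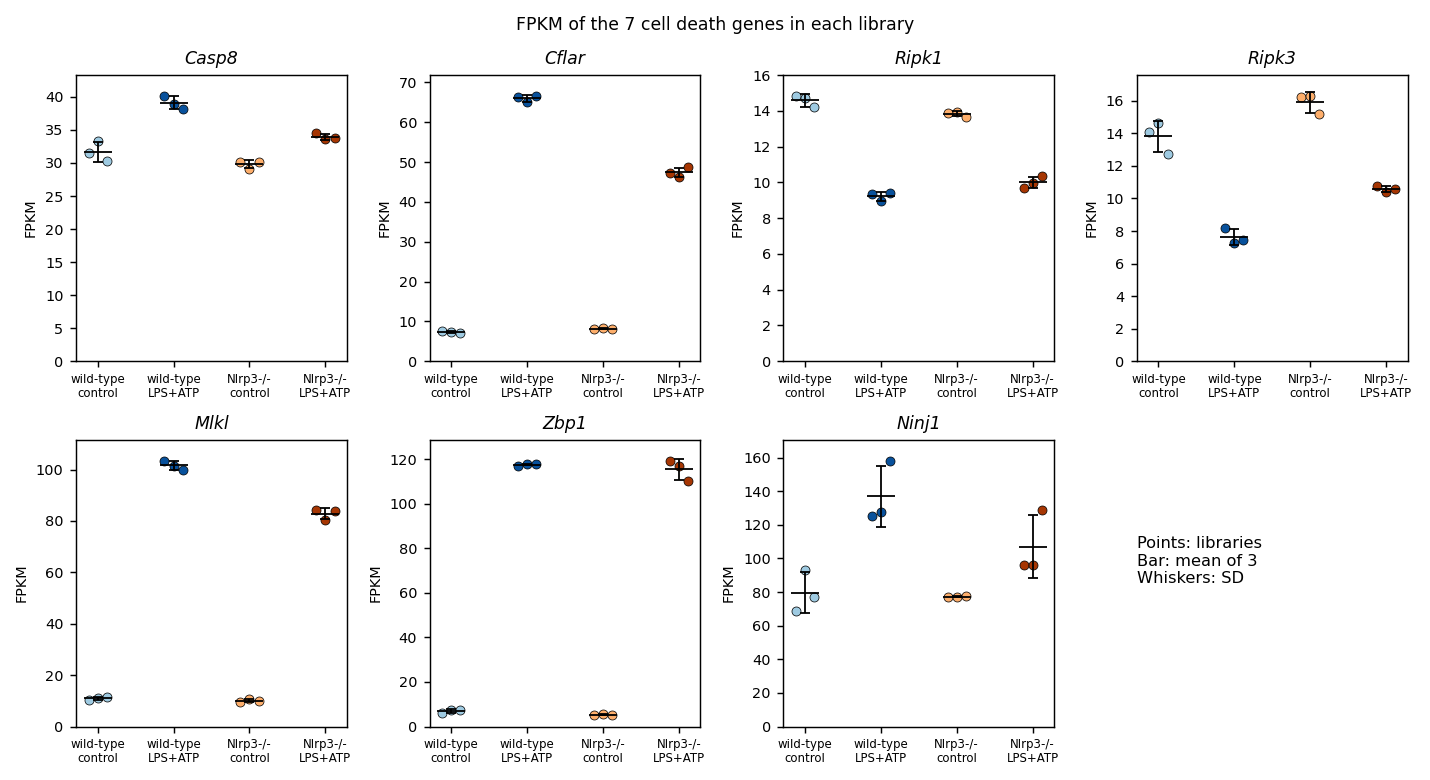
FPKM (linear axes from 0) of each of the 7 genes in the 12 libraries. Points are libraries, bars are means of 3 and whiskers are SD. Cflar, Mlkl and Zbp1 lie between 5.01 and 11.3 FPKM in all controls and between 46.2 and 119 FPKM in all stimulated libraries, whereas Ripk1 and Ripk3 are lower with LPS+ATP.

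Casp8 encodes the initiator protease at the apoptosis and necroptosis branch point. Its level was 31.4, 33.3 and 30.3 FPKM in wild-type controls and 40.2, 38.9 and 38.2 FPKM with LPS+ATP. Levels in Nlrp3-/- BMDMs were 30.2, 29.1 and 30.2 FPKM in controls and 34.5, 33.6 and 33.8 FPKM with LPS+ATP. All stimulated libraries were above all controls, and the 3 stimulated Nlrp3-/- libraries were below the 3 stimulated wild-type ones. The rise was 0.30 ± 0.04 (SE) on the log2 scale in wild-type (limma adjusted p = 2.32e-05) and 0.18 ± 0.04 in Nlrp3-/- (limma adjusted p = 0.00106). After median-ratio scaling of the libraries these rises were 0.61 and 0.47.

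Cflar, on chromosome 1 as is Casp8, encodes cFLIP. Its level was 7.68, 7.43 and 7.17 FPKM in wild-type controls and 66.4, 65.0 and 66.6 FPKM with LPS+ATP. In Nlrp3-/- BMDMs it was 8.08, 8.26 and 8 FPKM in controls and 47.3, 46.2 and 48.6 FPKM with LPS+ATP. No 2 groups overlapped, and the stimulated wild-type libraries were the highest. Cflar rose 8.89-fold in wild-type (log2 fold change 2.99 ± 0.03 SE, limma adjusted p = 2.5e-14) and 5.84-fold in Nlrp3-/- (2.41 ± 0.03, limma adjusted p = 1.71e-13).

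Ripk1 encodes the kinase and scaffold of the death receptor complexes. Its level was 14.8, 14.7 and 14.2 FPKM in wild-type controls and 9.35, 8.95 and 9.40 FPKM with LPS+ATP. Levels in Nlrp3-/- BMDMs were 13.9, 13.9 and 13.7 FPKM in controls and 9.69, 9.98 and 10.3 FPKM with LPS+ATP. Every stimulated library was below every control. The log2 fold change was -0.61 ± 0.04 (SE, limma adjusted p = 3.43e-08) in wild-type and -0.43 ± 0.04 (limma adjusted p = 8.78e-07) in Nlrp3-/-. After median-ratio scaling these values were -0.32 and -0.16. Exons of Ripk1, on chromosome 13, overlap those of Serpinb6a on the other strand and of Gm17084 on the same strand in GENCODE M21, and whether counting used strand is not given in the sources used here. Serpinb6a averaged 54.0 FPKM in wild-type controls, 13.1 FPKM in wild-type LPS+ATP, 42.1 FPKM in Nlrp3-/- control and 18.5 FPKM in Nlrp3-/- LPS+ATP libraries, the same order of groups as Ripk1, and its part in the Ripk1 values was not tested. Gm17084 was at most 0.126 FPKM in any library.

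Ripk3, on chromosome 14, encodes the kinase that phosphorylates MLKL. Its level was 14.1, 14.6 and 12.7 FPKM in wild-type controls and 8.20, 7.29 and 7.46 FPKM with LPS+ATP. In Nlrp3-/- BMDMs it was 16.2, 16.3 and 15.2 FPKM in controls and 10.7, 10.4 and 10.6 FPKM with LPS+ATP. Ripk3 was lower in every stimulated library than in every control, and higher in Nlrp3-/- than in wild-type libraries of the same state. The log2 fold change was -0.77 ± 0.06 (SE, limma adjusted p = 1.88e-07) in wild-type and -0.55 ± 0.06 (limma adjusted p = 4.68e-06) in Nlrp3-/-. After median-ratio scaling these were -0.49 and -0.27.

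Mlkl, on chromosome 8, encodes the pseudokinase that executes necroptosis. Its level was 10.3, 11.2 and 11.3 FPKM in wild-type controls and 103.3, 101.5 and 99.95 FPKM with LPS+ATP. Levels in Nlrp3-/- BMDMs were 9.54, 10.8 and 9.75 FPKM in controls and 84.1, 80.4 and 84.0 FPKM with LPS+ATP. The controls of the genotypes overlapped, and the stimulated libraries did not. Mlkl rose 9.28-fold in wild-type (log2 fold change 3.10 ± 0.05 SE, limma adjusted p = 2.99e-13) and 8.27-fold in Nlrp3-/- (2.93 ± 0.05, limma adjusted p = 6.41e-13).

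Zbp1, on chromosome 2, encodes the nucleic acid sensor that engages RIPK3. Its level was 6.08, 7.61 and 7.29 FPKM in wild-type controls and 117, 118 and 118 FPKM with LPS+ATP. In Nlrp3-/- BMDMs it was 5.01, 5.44 and 5.15 FPKM in controls and 119, 117 and 110 FPKM with LPS+ATP. All Nlrp3-/- controls were below all wild-type controls, while the stimulated libraries of the genotypes overlapped. Zbp1 rose 16.8-fold in wild-type (log2 fold change 3.90 ± 0.06 SE, limma adjusted p = 4.87e-13) and 22.2-fold in Nlrp3-/- (4.23 ± 0.06, limma adjusted p = 3.27e-13).

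Ninj1, on chromosome 13, encodes the adhesion protein that ruptures the plasma membrane in lytic death. Its level was 68.7, 92.9 and 77.1 FPKM in wild-type controls and 125, 128 and 158 FPKM with LPS+ATP. Levels in Nlrp3-/- BMDMs were 77.3, 76.8 and 77.7 FPKM in controls and 96.2, 96.0 and 128 FPKM with LPS+ATP. Replicate 3 was the highest library of both stimulated groups, and the SD with LPS+ATP (18.1 FPKM for wild-type, 18.7 FPKM for Nlrp3-/-) was the largest of the 7 genes. The rise was 0.78 ± 0.13 (SE) on the log2 scale in wild-type (limma adjusted p = 0.000241) and 0.45 ± 0.13 in Nlrp3-/- (limma adjusted p = 0.00984). After median-ratio scaling the Nlrp3-/- value was 0.74.

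The order of the 7 genes by FPKM, a level per length of transcript, changed with stimulation. In wild-type controls Ninj1 (79.6 FPKM) and Casp8 (31.7 FPKM) led, followed by Ripk1, Ripk3 and Mlkl, with Cflar (7.43 FPKM) and Zbp1 (6.99 FPKM) last. The libraries of Ripk1 and Ripk3 overlapped there, as did those of Cflar and Zbp1. In wild-type LPS+ATP libraries the order was Ninj1, Zbp1, Mlkl, Cflar, Casp8, Ripk1 and Ripk3, with no overlap between neighbours. In Nlrp3-/- LPS+ATP libraries Zbp1 and Ninj1 overlapped at the top, Mlkl, Cflar and Casp8 kept their places, and Ripk3 (10.6 FPKM) lay just above Ripk1 (10 FPKM), with no overlap.

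For Zbp1, Mlkl and Cflar the genotype differences were far smaller than the stimulation effects. The Casp8 difference with LPS+ATP (-0.20 ± 0.04 SE) was close in size to its stimulation effect in Nlrp3-/- (0.18 ± 0.04). For Ripk3 the values were 0.42 and -0.55, and for Ninj1 -0.36 and 0.45. In neither state did any gene differ by a log2 value of 1, so 0 of the 7 genes passed the fold limit. With LPS+ATP, 2 of the 7 genes were higher in Nlrp3-/- than in wild-type BMDMs (Ripk3 and Ripk1) and 4 were lower (Cflar, Ninj1, Mlkl and Casp8), against 35.9% of all tested genes higher and 12.6% lower, and 5.05% past the fold limit in either direction. The median log2 difference was -0.20 for the 7 genes and 0.11 for all tested genes. After median-ratio scaling, which moved the median of all tested genes by -0.17, the split was 1 higher and 5 lower. Shares of all tested genes were not computed after this or any other rescaling, so rescaled counts cannot be set against the shares above.

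With LPS+ATP the log2 difference of Nlrp3-/- from wild-type was -0.47 ± 0.03 (SE) for Cflar (limma adjusted p = 5.89e-07), -0.29 ± 0.05 for Mlkl (limma adjusted p = 0.000432) and -0.20 ± 0.04 for Casp8 (limma adjusted p = 0.00116). Ripk3 was higher by 0.42 ± 0.06 (limma adjusted p = 9.17e-05). For these 4 genes the 3 libraries of one genotype did not overlap those of the other, and direction and call held in all 15 alternatives. How many of all tested genes were without overlap was not computed here either. Median-ratio scaling moved Mlkl to -0.51, Casp8 to -0.41 and Ripk3 to 0.23. Zbp1 had a difference of -0.03, with a 95% interval from -0.17 to 0.12 and a limma adjusted p of 0.77. That interval moved with the scaling, since median-ratio scaling gave -0.24 with a limma adjusted p of 0.00988.

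The remaining calls with LPS+ATP were fragile. Ripk1 was higher by 0.10 ± 0.04 (SE, limma adjusted p = 0.0356), with no overlap of libraries, but lower by 0.09 after median-ratio scaling and by 0.12 after upper-quartile scaling. Its call was lost without wild-type replicate 1 or 2 or Nlrp3-/- replicate 2 or 3 of the stimulated groups, with limma adjusted p from 0.0549 to 0.126, and with the compared groups alone (limma adjusted p = 0.0894). Ninj1 was lower by 0.36 ± 0.13 (limma adjusted p = 0.0433), with overlapping libraries. Without wild-type replicate 2 the difference of Ninj1 was -0.41, without wild-type replicate 3 it was -0.26, and without Nlrp3-/- replicate 1 or 2 it was -0.29, none past the threshold. The call was also lost with no filter on low values (limma adjusted p = 0.105), in TPM (limma adjusted p = 0.0538) and with the compared groups alone (limma adjusted p = 0.0702). Over all left-out libraries the Ninj1 difference ran from -0.50 to -0.26, and it was -0.58 after median-ratio and -0.60 after upper-quartile scaling, both past the threshold.

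In control BMDMs, 2 of the 7 genes were higher in Nlrp3-/- (Cflar and Ripk3) and 1 was lower (Zbp1), against 33.3% of all tested genes higher, 14.5% lower and 6.71% past the fold limit. After median-ratio scaling, which moved the median of all tested genes by -0.15, the split was 0 higher and 4 lower (Casp8, Ripk1, Mlkl and Zbp1), with no rescaled share of all tested genes to compare. Zbp1 differed by -0.36 ± 0.06 (SE, limma adjusted p = 0.000704), a call kept in all 15 alternatives. Cflar differed by 0.11 ± 0.03 (limma adjusted p = 0.0175) and by -0.06 after median-ratio scaling. Its call was lost without wild-type replicate 3 (limma adjusted p = 0.0658) and without Nlrp3-/- replicate 2 (limma adjusted p = 0.0591). Ripk3 differed by 0.19 ± 0.06 (limma adjusted p = 0.0157) and by 0.0056 after median-ratio scaling. That call was lost without wild-type replicate 3 and without Nlrp3-/- replicate 1 or 2. Casp8 (-0.08), Ripk1 (-0.07), Mlkl (-0.12) and Ninj1 (-0.03) did not pass the test. Casp8 passed without wild-type replicate 3 (limma adjusted p = 0.0338), and Mlkl passed without wild-type replicate 1 (limma adjusted p = 0.0198) or Nlrp3-/- replicate 2 (limma adjusted p = 0.0129). The fibroblast and neutrophil marker sums above were higher in Nlrp3-/- in both states, and 4 of 8 macrophage identifiers were lower in each. Not all of the 7 genes kept their direction between states, as Cflar differed by 0.11 in controls and by -0.47 with LPS+ATP. The part of these markers in the genotype differences was not tested.

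**Figure D2:**
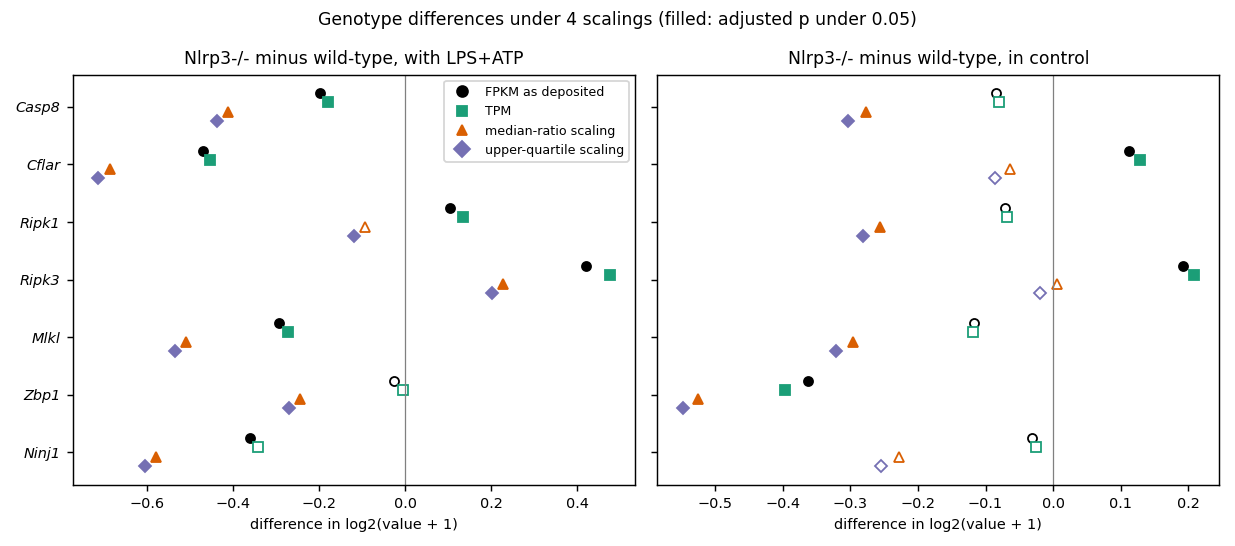
Difference of Nlrp3-/- from wild-type in log2(value + 1) for the 7 genes, with LPS+ATP on the left and in controls on the right, under 4 scalings of the same table. Filled symbols have an adjusted p under 0.05. Cflar with LPS+ATP stays below 0 under all 4 scalings, whereas Ripk1 with LPS+ATP and Cflar in controls change sign under median-ratio and upper-quartile scaling.

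The stimulation effect itself differed between the genotypes for 3 of the 7 genes, tested as the interaction of genotype and stimulation (2 higher and 1 lower in Nlrp3-/-, 0 past the fold limit). Among all tested genes 14.7% had a higher and 13.0% a lower effect in Nlrp3-/-, and 2.15% passed the fold limit. Cflar rose less in Nlrp3-/- BMDMs, by -0.58 ± 0.05 (SE) on the log2 scale (limma adjusted p = 7.47e-06), and this held in all 20 alternatives (-0.63 to -0.56). Markers of other cells moved with it, since 4 of 5 fibroblast and 4 of 5 tested neutrophil markers also had a lower stimulation effect in Nlrp3-/-, from -0.35 for Col3a1 to -3.58 for Mpo. Of the macrophage identifiers 3 had a lower and 2 a higher effect. The part of these markers in the interaction of Cflar, Zbp1 and Ripk1 was not tested. The Zbp1 rise was greater in Nlrp3-/- by 0.34 ± 0.09 (limma adjusted p = 0.0182), with a limma adjusted p of 0.0511 after upper-quartile scaling. The Zbp1 groups differed in controls and overlapped with LPS+ATP.

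Ripk1 fell less in Nlrp3-/- by 0.18 ± 0.05 (SE, limma adjusted p = 0.0271). That call was lost without wild-type control replicate 2, wild-type LPS+ATP replicate 2, Nlrp3-/- control replicate 3 or Nlrp3-/- LPS+ATP replicate 3 (limma adjusted p from 0.0567 to 0.064). The difference in effect was 0.23 for Ripk3 (95% interval 0.05 to 0.40, limma adjusted p = 0.0567), -0.17 for Mlkl (-0.33 to -0.02, limma adjusted p = 0.0833), -0.11 for Casp8 (-0.23 to 0.0044, limma adjusted p = 0.145) and -0.33 for Ninj1 (-0.75 to 0.09, limma adjusted p = 0.23). Ripk3 passed without wild-type control replicate 3 (limma adjusted p = 0.019) or wild-type LPS+ATP replicate 1 (limma adjusted p = 0.0284), in TPM (limma adjusted p = 0.047) and with a filter of FPKM 5 (limma adjusted p = 0.0486). Casp8 passed without wild-type control replicate 2 (limma adjusted p = 0.0489), and Mlkl passed after median-ratio scaling (limma adjusted p = 0.0492).

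**Figure D3:**
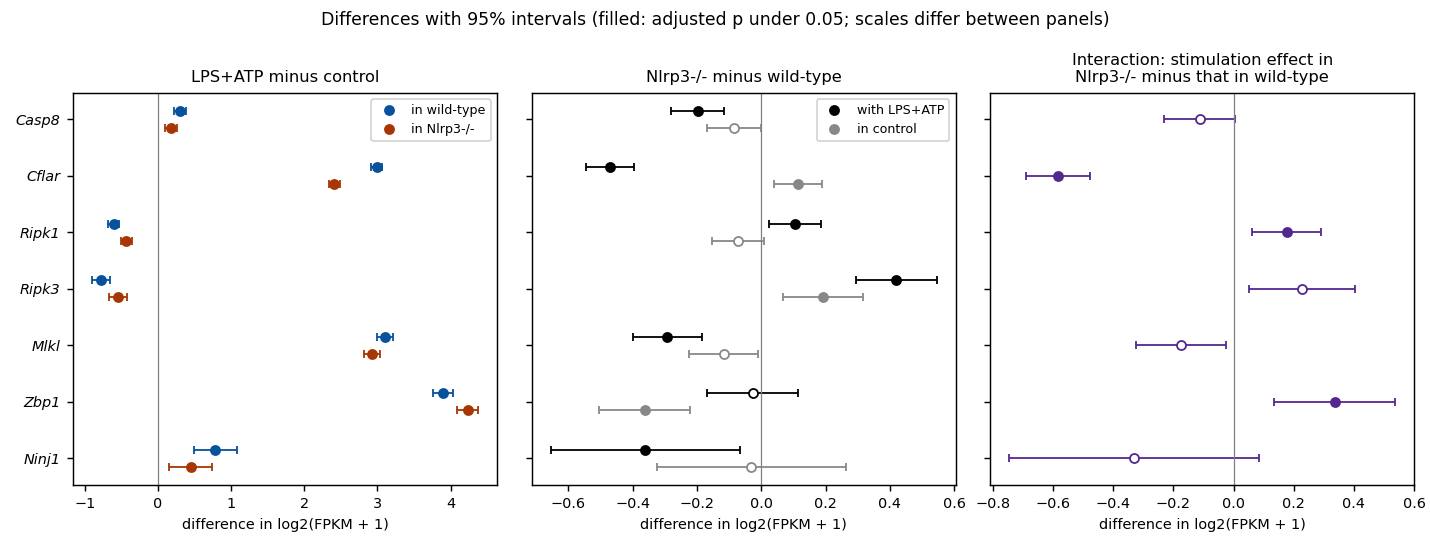
Differences in log2(FPKM + 1) with 95% intervals for stimulation in each genotype (left), genotype in each state (middle) and their interaction (right), on axes of different width. Filled points have an adjusted p under 0.05. Stimulation effects reach 4.23 for Zbp1, while the genotype differences of the 7 genes lie between -0.47 and 0.42.

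Ratios within a library do not depend on the scaling between libraries and were given without a test. The ratio of Cflar to Casp8, the regulator to its protease, was 0.223 to 0.244 in wild-type controls and 1.65 to 1.74 with LPS+ATP. In Nlrp3-/- libraries it was 0.265 to 0.284 in controls and 1.37 to 1.44 with LPS+ATP. Cflar thus had a lower FPKM than Casp8 in every control library and a higher one in every stimulated library. The ratio of Mlkl to Ripk3, the substrate to its kinase, was 0.731 to 0.888 in wild-type controls and 12.6 to 13.9 with LPS+ATP. In Nlrp3-/- libraries it was 0.587 to 0.660 in controls and 7.75 to 7.93 with LPS+ATP, apart from wild-type in both states. The ratio of Ripk1 to Ripk3 averaged 1.06 in wild-type controls and 1.21 with LPS+ATP, and 0.870 and 0.947 in Nlrp3-/- libraries. It was above 1 in every wild-type library (lowest 1.005, a control) and below 1 in every Nlrp3-/- library (highest 0.976, with LPS+ATP), so the margin was narrow. The part of reads from the overlapping Serpinb6a in this ratio was not tested.

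**Figure D4:**
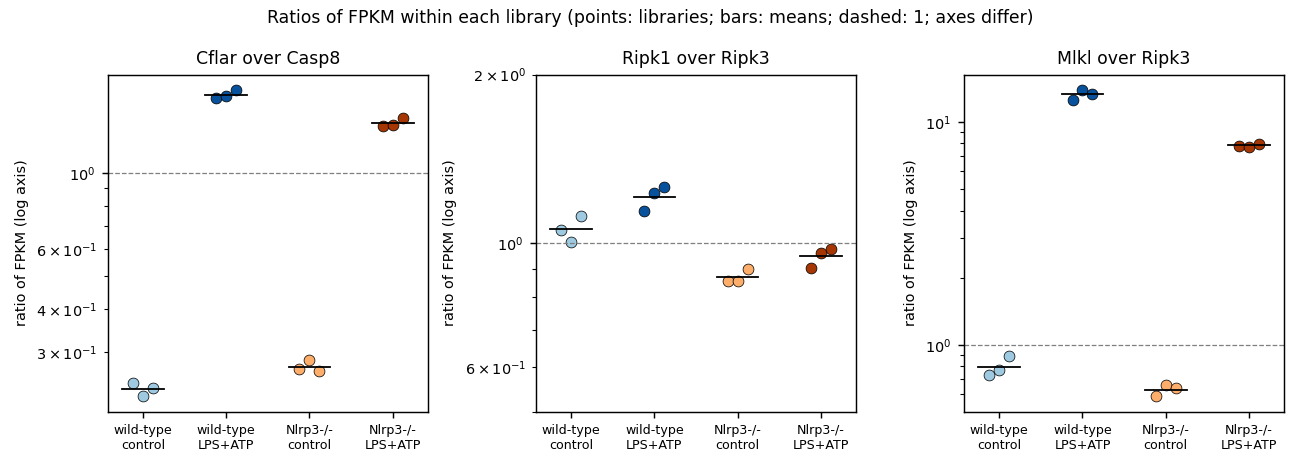
Ratios of FPKM within each library on log axes of different width (points are libraries, bars are means, the dashed line marks 1). Cflar over Casp8 crosses 1 between control and LPS+ATP in both genotypes, Ripk1 over Ripk3 lies above 1 in wild-type and below 1 in Nlrp3-/- libraries, and Mlkl over Ripk3 averages 13.3 in wild-type and 7.84 in Nlrp3-/- libraries with LPS+ATP.

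Of 48 other genes of these pathways, listed by role, 45 were tested (Fasl, Gsdme and Ninj2 were too low). On stimulation 24 rose and 12 fell in wild-type, and 24 rose and 10 fell in Nlrp3-/-, with a median log2 fold change of 0.38 and 0.17. These counts were 53.3% and 26.7% of the 45 genes in wild-type, where 23.3% of all tested genes rose and 53.1% fell, and 53.3% and 22.2% in Nlrp3-/-, where 20.6% rose and 53.8% fell. The medians of all tested genes were -0.26 and -0.24. The counts by role below are read against the same shares. Of the 45 genes, 23 rose in both genotypes, 9 fell in both and 0 moved in opposite directions. The matching shares of all tested genes were not computed, so these shared counts have no background to be read against. After median-ratio scaling, which moved the median of all tested genes by 0.24 and 0.23, the splits were 32 and 6, and 30 and 5. The rescaled shares of all tested genes were not computed. With the fold limit, 16 rose and 2 fell in wild-type and 15 rose and 1 fell in Nlrp3-/-, and 15 met the limit in both. Of all tested genes, 8.25% rose and 11.2% fell past the limit in wild-type, and 6.64% and 8.21% in Nlrp3-/-. The share that met it in both genotypes was not computed.

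Of the ligands and receptors, 6 of 8 tested rose and 1 fell in wild-type. Tnf, the ligand that starts the RIPK1 complexes, went from 7.49 to 572 FPKM in wild-type and from 11.5 to 422 FPKM in Nlrp3-/- BMDMs on average. Its log2 rise of 6.08 ± 0.05 (SE) in wild-type and 5.08 ± 0.05 in Nlrp3-/- differed by -0.9995 (limma adjusted p = 1.32e-06). Tnfsf10, which encodes TRAIL, rose by 2.60 and 2.55 on the log2 scale, the death receptor Fas by 1.71 and 1.49, and the double-stranded RNA receptor Tlr3 by 1.85 and 2.12, in wild-type and Nlrp3-/- respectively.

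Of 14 adaptors and ubiquitin regulators of the complexes, 5 rose and 5 fell in wild-type. Those that rose past the fold limit in both genotypes were Tnfaip3, which encodes the ubiquitin editor A20 (2.94 and 2.83 on the log2 scale), its partner Tnip1 (1.84 and 1.99), Traf2 (1.40 and 1.01), the ubiquitin ligase Birc3 (1.39 and 1.21) and Rnf31, the catalytic subunit of the linear ubiquitin ligase (1.23 and 1.14). Otulin, which removes linear ubiquitin, fell by 1.10 on the log2 scale in wild-type and by 0.49 in Nlrp3-/- BMDMs, and the effects differed by 0.61 ± 0.08 (SE, limma adjusted p = 0.000259). The rise of Traf2 was smaller in Nlrp3-/- (interaction -0.39, limma adjusted p = 0.0025). Tnfaip3 varied widely within groups, from 36.7 to 68.7 FPKM in wild-type LPS+ATP and from 37.5 to 68.5 FPKM in Nlrp3-/- LPS+ATP libraries. The SE of its log2 rise in wild-type was 0.32.

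Of 8 kinases that act on RIPK1 and their partners, 4 rose and 1 fell in wild-type. Mapkapk2, which encodes the kinase MK2, rose by 1.20 in wild-type and 1.34 in Nlrp3-/- on the log2 scale. Ikbke rose by 0.92 and 1.15, and Ikbkg, which encodes the regulatory subunit NEMO, by 1.07 and 0.62.

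The 10 apoptosis effectors were split, with 4 higher and 5 lower in both genotypes. Casp9, the initiator of the mitochondrial route, fell by 1.01 on the log2 scale in wild-type and by 1.09 in Nlrp3-/-. Cycs, cytochrome c, rose by 1.45 in wild-type and 0.97 in Nlrp3-/- (interaction -0.49 ± 0.05 SE, limma adjusted p = 4.23e-05). Its many processed copies in the genome make its read assignment uncertain. The list of lytic death and membrane partners holds regulators such as Adar as well as genes that carry out lytic death. All 5 of its tested genes rose in both genotypes. Gsdme, on this list but below the filter, had lower values with LPS+ATP. It averaged 0.866 FPKM in wild-type control and 0.441 FPKM in wild-type LPS+ATP libraries, and 0.932 and 0.479 FPKM in Nlrp3-/-. Casp4, the sensor of cytosolic LPS, rose by 2.68 and 2.35, Casp1 by 1.85 and 1.45, and Adar, whose product limits ZBP1 ligands, by 1.30 and 1.62 on the log2 scale. The effects on Casp1 (interaction -0.40, limma adjusted p = 0.00767) and Casp4 (interaction -0.33, limma adjusted p = 0.0227) were smaller in Nlrp3-/-.

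Between genotypes, 7 of the 45 genes were higher and 10 lower in Nlrp3-/- with LPS+ATP, against 35.9% and 12.6% of all tested genes. In controls 11 were higher and 10 lower, against 33.3% and 14.5% of all tested genes, and 0 passed the fold limit in either state. As shares of the 45 genes this was 15.6% higher and 22.2% lower with LPS+ATP, and 24.4% and 22.2% in controls. After median-ratio scaling, which moved the median of all tested genes by -0.17 and -0.15, these splits were 1 and 24, and 7 and 22. The shares above are of the unscaled fit, and rescaled shares were not computed. In the interaction 5 were higher and 9 lower, which was 11.1% and 20% of the 45 genes, against 14.7% and 13.0% of all tested genes. The fold limit was passed by 0 of the 45 genes and by 2.15% of all tested genes.

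**Figure D5:**
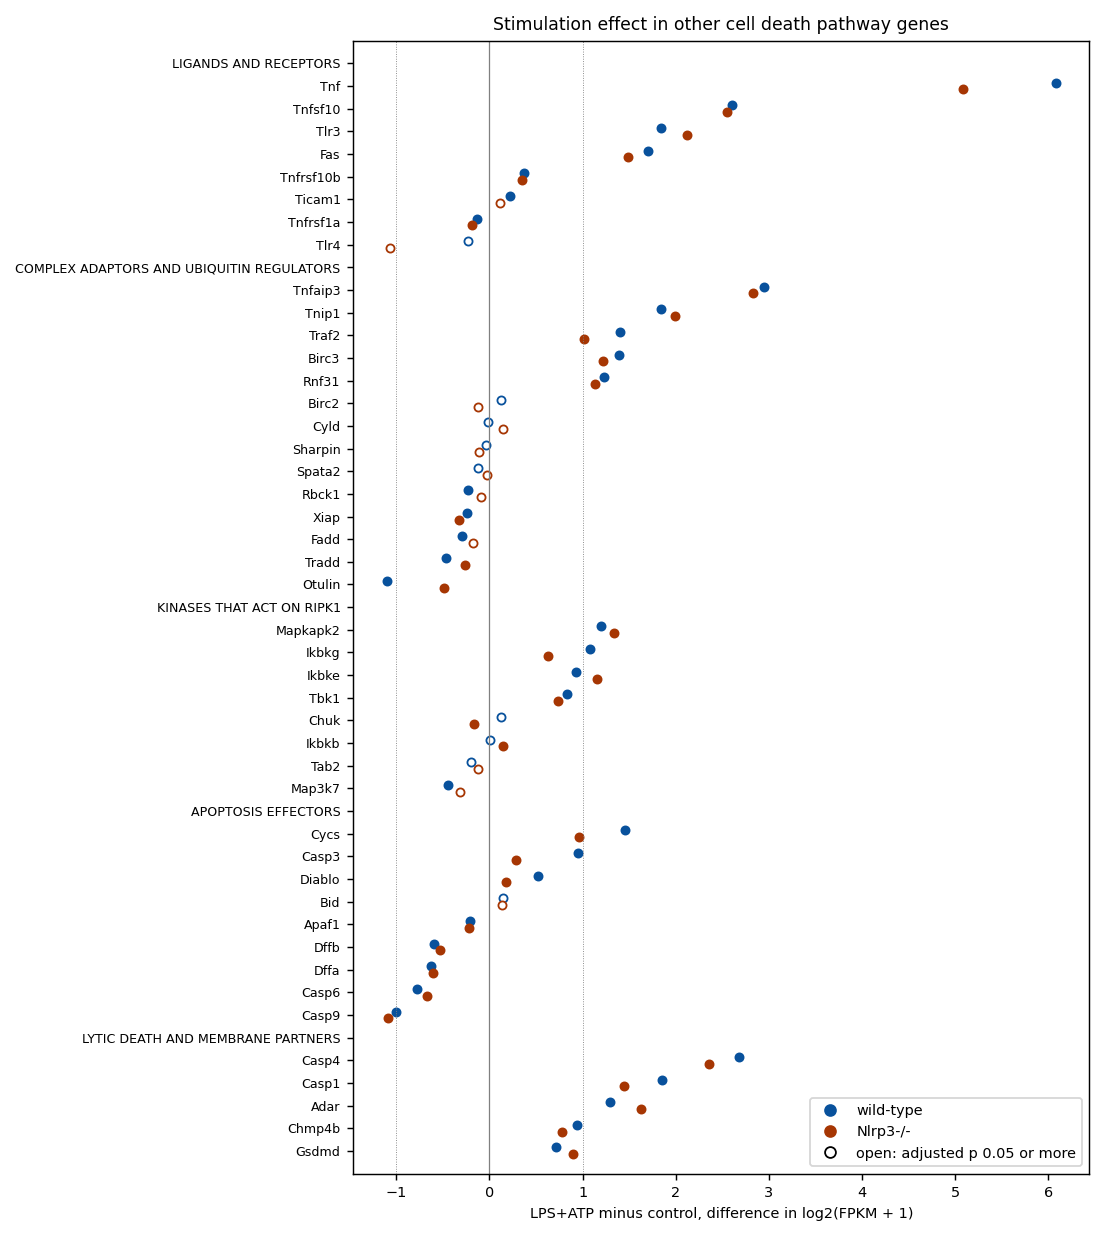
Stimulation effect (LPS+ATP minus control, log2(FPKM + 1)) of tested pathway genes, grouped by role, in wild-type (blue) and Nlrp3-/- (brown) BMDMs. Filled points have an adjusted p under 0.05 and dotted lines mark a log2 difference of 1. Tnf lies farthest to the right at 6.08 and 5.08, and Otulin and Casp9 are the 2 genes called beyond the left dotted line in wild-type.

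The genes whose profiles lay closest to each of the 7 were found by the root mean square difference of mean-centred log2(FPKM + 1) over the 12 libraries, a description with no test. Nearest to Casp8 were Ppfia1 and Mon1b (0.041 and 0.052). Nearest to Cflar were Parp10 and the processed pseudogenes Gm19026 and Gm9845 (0.077 to 0.11). Gm19026, the closest, was at 0.097 FPKM in wild-type controls, so the pseudocount of 1 sets much of its likeness. Parp10, an ADP-ribosyltransferase, averaged 7.02 FPKM in wild-type controls and 61.4 FPKM with LPS+ATP, and 7.16 and 49.9 FPKM in Nlrp3-/-. Nearest to Ripk1 were Slc35e4, Exoc3 and Nek9 (0.035 to 0.038), and nearest to Ripk3 were Hnrnpu, Hs6st1 and Gm10184 (0.055 to 0.066). Nearest to Mlkl were Gbp11, Parp14 and Gm18853 (0.082 to 0.12), of which Gbp11, a guanylate-binding protein, was at 0.05 FPKM in wild-type controls, where the same limit applies. Nearest to Zbp1 were Ifi213, Cd40 and Phf11d (0.13 to 0.14). Cd40, a costimulatory receptor, averaged 1.82 and 39.1 FPKM in wild-type and 1.47 and 39.8 FPKM in Nlrp3-/- control and LPS+ATP libraries. Ninj1 was nearest to Ube2m, Txlnb and 1810037I17Rik (0.11 to 0.13). The limit set by the pseudocount also applies to Txlnb (0.26 FPKM in wild-type controls) and to Gm18853 (0.40 FPKM in wild-type controls).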

How the data were processed

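RNA of 12 BMDM libraries, 3 per group, was extracted with TRIzol and prepared with an Illumina TruSeq RNA kit. The authors deposited FPKM per gene and library. The processing notes name GRCm39 and DESeq2 1.24.0 without a role, and the aligner, counter and annotation are not given in the sources used here. FPKM allows no count test and hides the depth in reads. In total 0 columns of library values were left unused.

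Genes reaching FPKM 1 in 3 or more of the 12 libraries entered a limma 3.58.1 fit (R 4.3.3) of log2(FPKM + 1), with 1 mean per group, a variance trend and Benjamini-Hochberg adjustment over all 12622 genes. The study's methods state no test for these libraries. There were 5 contrasts: stimulation in each genotype, genotype in each state and their interaction. The test was checked on simulated data with independent noise and a shift of few genes in a single group. That check does not cover differences of scaling or cell composition between groups.

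The 7 genes and the pathway lists were chosen with earlier results of these data known. Pathway genes were named where some contrast reached a log2 fold change of 1 in size with an adjusted p under 0.05, and other genes where they were among the 3 nearest profiles of any of the 7. Some genes that this rule names are not reported here. Nlrp3, Xist, Y-linked genes, Nnt and cell markers were named as checks.

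Genes were placed by identifier in GENCODE M21 (55154 of 55335 matched), with no coordinates taken from it. With blastn 2.17.0+ at 95% identity over 20% of the transcript, 0 near copies of the 7 genes were found. Promoters were RefSeq, GRCm38.p6. Figures used Python 3.11.15 and matplotlib 3.10.9. Alternatives were other pseudocounts, filters and scalings, TPM, no trend, a replicate block, the compared groups alone, the fold limit and leaving out each library.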

Additional observations from a re-analysis of the deposited data

Results flagged for a closer look

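The stimulation effect of 3 of the 7 genes differed between Nlrp3-/- and wild-type BMDMs by the interaction term of limma. The shares of all tested genes called in this term were 14.7% higher and 13.0% lower. The term was -0.58 for Cflar, which rose less in Nlrp3-/- (limma adjusted p = 7.47e-06), 0.34 for Zbp1, which rose more (limma adjusted p = 0.0182), and 0.18 for Ripk1, which fell less (limma adjusted p = 0.0271). Direction and call were kept in 20 of 20 alternatives for Cflar, 19 of 20 for Zbp1 and 15 of 20 for Ripk1. The groups had 3 libraries each, too few for a test of single outlying libraries.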

How the results depend on the processing

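All 14 stimulation effects of the 7 genes kept direction and call in each of 15 alternatives. Over all contrasts, 509 of the recomputed fold changes kept direction and call, 18 gained and 26 lost the call and 7 reversed. Ripk1 with LPS+ATP reversed to -0.094 after median-ratio and -0.12 after upper-quartile scaling, Cflar in controls to -0.063 and -0.087, and Ripk3 in controls to -0.019 after upper-quartile scaling. Both scalings move the median of all tested genes between groups. Zbp1 with LPS+ATP reversed to 0.0067 without Nlrp3-/- LPS+ATP replicate 3 (range over left-out libraries -0.0496 to 0.00668), and Ninj1 in controls to 0.085 without wild-type control replicate 2 (range -0.13 to 0.085), neither past the threshold. Requiring a log2 fold change of at least 1 left 3 and 3 of the 7 genes changed by stimulation in wild-type and Nlrp3-/- and 0 in the other 3 contrasts, and 18, 16, 0, 0 and 0 of the 45 pathway genes. Upper-quartile scaling raised the pathway genes differing by genotype with LPS+ATP from 17 to 26, with no share of all tested genes computed after that scaling. Same-numbered libraries did not deviate together over the tested genes as a whole (18 pairs, correlations -0.057 to 0.053, own number best in 7). A pairing that affects few genes would not show in such correlations. With a replicate block 7, 7, 5, 3 and 3 of the 7 genes changed in the 5 contrasts, against 7, 7, 6, 3 and 3 without it. The block ended the Ripk1 calls with LPS+ATP (limma adjusted p = 0.0611) and in the interaction (limma adjusted p = 0.0514), and the Ripk3 interaction passed (limma adjusted p = 0.0484). FPKM without read counts gives no counting error for single values, and small genotype differences rest on the scaling.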
